A study of Mus musculus with 16 samples.

Results

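The heat shock response and the unfolded protein response (UPR) were followed through 10 genes: Hspa1a, Hspa1b, Hspa8, Dnajb1, Hspb1, Hsph1 and Hsp90aa1 for the first, and Hspa5, Ddit3 and Xbp1 for the second. Every probe set whose only annotated symbol was a member was taken. This gave 28 of the 45037 non-control probe sets, for 10 of 18193 genes. The probe set with the highest mean log2 signal stood for its gene and the others were checked against it.

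The 16 arrays came from E11.5 mouse kidney rudiments. At this stage an epithelial outgrowth, the ureteric bud (UB), has grown into the metanephric mesenchyme (MM), from which nephrons and stroma form. The hand-dissected groups were 4 wild-type UB arrays, each from 3 to 9 pooled buds, and 3 wild-type MM arrays from individual mesenchymes, labelled replicates 5 to 7. Their rudiments were held in 0.5 mg/ml collagenase B at 37 °C for 30 minutes before separation. The laser-captured groups were 4 arrays of wild-type MM and 5 of MM null for both Hoxa11 and Hoxd11, paralogous homeobox genes needed for kidney growth. These were cut from frozen, acetone-fixed 7 µm sections with no enzyme step. The wild-type captures pooled 3 to 4 mesenchymes from sectioned kidney rudiments, while the null captures came from sectioned urogenital ridges, so the source piece differs with genotype. The labels name no strain or litter. The values are MAS5 signals, an Affymetrix summary of the probes of a probe set. Arrays give no read depth, and their number limits the precision.

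Heat shock proteins are chaperones that bind unfolded proteins in the cytosol. Their genes are switched on by heat shock factors when proteins misfold, through heat shock elements made of alternating GAA and TTC units. The UPR is the matching programme of the endoplasmic reticulum (ER): ER sensors raise ER chaperones such as Hspa5, splice the mRNA of the transcription factor Xbp1, and induce the transcription factor Ddit3 (CHOP) through the kinase arm. Both also run at a basal level in growing embryonic cells.

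The upstream sequences are shown for 5 genes to set the motifs of both programmes side by side. RefSeq's promoter table (GRCm38.p6) held 8 of the 10 members, all but Hspa8 and Hsp90aa1. Each line gives the 250 bases before the annotated start, 5′ to 3′ on the gene's strand. Capitals mark a pair of heat shock units (GAANNTTC or TTCNNGAA), or in Hspa5 the ER stress response element (CCAAT, 9 free bases, CCACG).
Hspa1a, minus strand, chr17:34972157-34972406: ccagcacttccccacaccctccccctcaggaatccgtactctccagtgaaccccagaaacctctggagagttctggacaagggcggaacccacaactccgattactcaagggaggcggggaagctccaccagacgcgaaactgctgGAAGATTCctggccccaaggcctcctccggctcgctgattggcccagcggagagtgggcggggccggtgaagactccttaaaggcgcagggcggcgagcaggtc
Hspa1b, minus strand, chr17:34959239-34959488: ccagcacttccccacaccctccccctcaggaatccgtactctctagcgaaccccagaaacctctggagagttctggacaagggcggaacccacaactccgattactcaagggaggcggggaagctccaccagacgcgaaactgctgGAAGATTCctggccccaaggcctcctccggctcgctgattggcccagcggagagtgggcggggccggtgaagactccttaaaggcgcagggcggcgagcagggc
Dnajb1, plus strand, chr8:83607925-83608174: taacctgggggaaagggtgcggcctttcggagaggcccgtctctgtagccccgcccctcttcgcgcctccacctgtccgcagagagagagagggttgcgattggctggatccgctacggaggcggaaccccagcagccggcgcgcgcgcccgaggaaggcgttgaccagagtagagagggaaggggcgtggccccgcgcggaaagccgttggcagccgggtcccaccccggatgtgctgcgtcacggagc
Hspb1, plus strand, chr5:135887669-135887918: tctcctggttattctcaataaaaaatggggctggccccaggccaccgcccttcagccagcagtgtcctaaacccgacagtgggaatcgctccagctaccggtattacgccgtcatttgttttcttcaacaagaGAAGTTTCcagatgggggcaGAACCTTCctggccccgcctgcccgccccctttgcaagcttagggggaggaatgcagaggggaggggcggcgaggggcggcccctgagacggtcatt
Hspa5, plus strand, chr2:34771840-34772089: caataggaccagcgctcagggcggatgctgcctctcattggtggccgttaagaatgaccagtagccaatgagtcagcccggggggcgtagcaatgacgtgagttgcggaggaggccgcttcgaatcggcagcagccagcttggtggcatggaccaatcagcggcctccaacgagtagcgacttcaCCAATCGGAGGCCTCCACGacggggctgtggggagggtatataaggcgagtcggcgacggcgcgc
The Hspa1a and Hspa1b windows differed at 3 of 250 positions (98.8% identity), and each held GAAGATTC beginning 104 bases before the start. These neighbouring genes on chromosome 17 encode near-identical proteins, so which copy a probe set reads is uncertain. Hspb1 held its matches 117 and 97 bases before the start.

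The pair of units was found in 4 of the 8 member promoters (Hspa1a, Hspa1b, Hspb1 and Hsph1) and in 12.8% of all 32851 promoters of the table, each searched on both strands over its 300 bases. The heat shock element of 3 alternating units with 2 free bases between them, which contains the pair, was in 0 of 8 members and 0.466% of promoters. Of the 8, only Hspa5 held the ER stress response element, 65 bases before the start, against 0.113% of promoters. It also held TGACGT, the core of a cyclic-AMP response element, found in 6.47% of promoters. CCAAT, which the ER stress response element contains, lay in 6 of 8 members and in 33.8% of promoters. TATAAA (12.4%) and TGATGNAAN, the composite site of ATF4 and CHOP (3.44%), lay in none of the 8.

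Hoxa11 checked the labels: its probe set read 91.8 to 197 on the null arrays and 526 to 840 on the wild-type captures. Bud markers (13 genes) summed to 233318 to 284987 on UB arrays, 2360 to 3040 on hand-dissected MM, 12357 to 68465 on wild-type captures and 13567 to 46167 on null captures. On both captured groups the erythroid markers (9 genes) also summed higher, at 87637 to 171439, than on hand-dissected MM (65125 to 73988) and UB (9168 to 38948). Of the bud markers, 13 of 13 lay above the array median on every wild-type capture and 7 of 13 on every hand-dissected MM array. Macrophage markers (8 genes) summed to 11440 to 21948 on wild-type captures, 4497 to 12816 on hand-dissected MM, 1437 to 14022 on null captures and 982 to 1552 on UB. The MM label was borne by the nephron progenitor markers (9 genes), at 68874 to 86708 on hand-dissected MM, 36470 to 65666 and 19706 to 88914 on wild-type and null captures and 1367 to 2200 on UB. Stromal markers (8 genes) read 111046 to 159174 over the MM groups and 2110 to 5362 on UB, and endothelial markers (10 genes) 9100 to 39798 and 3093 to 6131. The ratio of 3′ to 5′ signal of the Gapdh control, a measure of RNA quality and amplification length, was 22.1 to 69.3 on hand-dissected MM, against 6.53 to 12.2 on UB and 14.3 to 26.3 on captures. For Actb it was lower on hand-dissected than on captured arrays (exact two-sided permutation test p = 0.00245, 0.0196 after adjustment over 8 tests). The part of these differences in the results was not tested. Null replicate 1 stood apart, with a median correlation of 0.858 with its group against 0.905 to 0.911 for the other null arrays.

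Differences were taken as log2(signal + 36.3) and tested with limma over all kept probe sets, with Benjamini-Hochberg adjusted p-values and a threshold of 0.05. The comparisons were wild-type captures minus hand-dissected MM (method, both labelled wild-type MM), null minus wild-type captures (genotype), UB minus MM by hand (tissue), and the mean of both hand-dissected groups minus the mean of both captured groups. In the first, pooling and the sums of bud and erythroid markers differ along with the method. In the third, pooling differs along with the tissue. The last is a summary of the 4 group means, in which tissue and genotype differ along with the method. The comparisons share arrays with each other, so they are not independent. Method, handling time, pooling and cell content cannot be told apart, and in bulk samples fewer cells of a type and less RNA per cell cannot be told apart.

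The members did not move as a block. By brightest probe set and deposited scaling, Dnajb1 was higher in hand-dissected MM than in every other group, and Hspa1b was highest in UB. The chaperones Hspa8 and Hsp90aa1 were higher in captured than in hand-dissected MM. With the median over probe sets Dnajb1 was not called within MM (-0.49, limma adjusted p = 0.0859) or in UB against MM (-0.36, 0.207). Quantile normalization ended the Hspa8 call within MM (0.16, 0.152). On leaving out each array, Hsp90aa1 kept its call within MM in 1 of 7 fits, and Hspa1b in UB against MM in 3 of 7. In wild-type captures against hand-dissected MM, 2 members were higher and 1 lower of 10, where 23.5% of all 12172 genes tested were called (13.6% higher, 9.88% lower). UB against MM also gave 2 higher and 1 lower, where 28.5% of 12435 genes were called (13.9% higher, 14.6% lower). Between both hand-dissected and both captured groups 2 members were higher and 5 lower by hand, with 29.2% of 13503 genes called (13.3% higher, 16% lower). Null against wild-type captures gave 0 of 10 with limma, with 1.74% of 12161 genes called (0.748% higher, 0.995% lower), and 1 of 10 at an unadjusted p below 0.05 (all genes, 2319). In the comparison of method within MM, of tissue and of genotype, the members' share is near that of all genes.

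**Figure D1:**
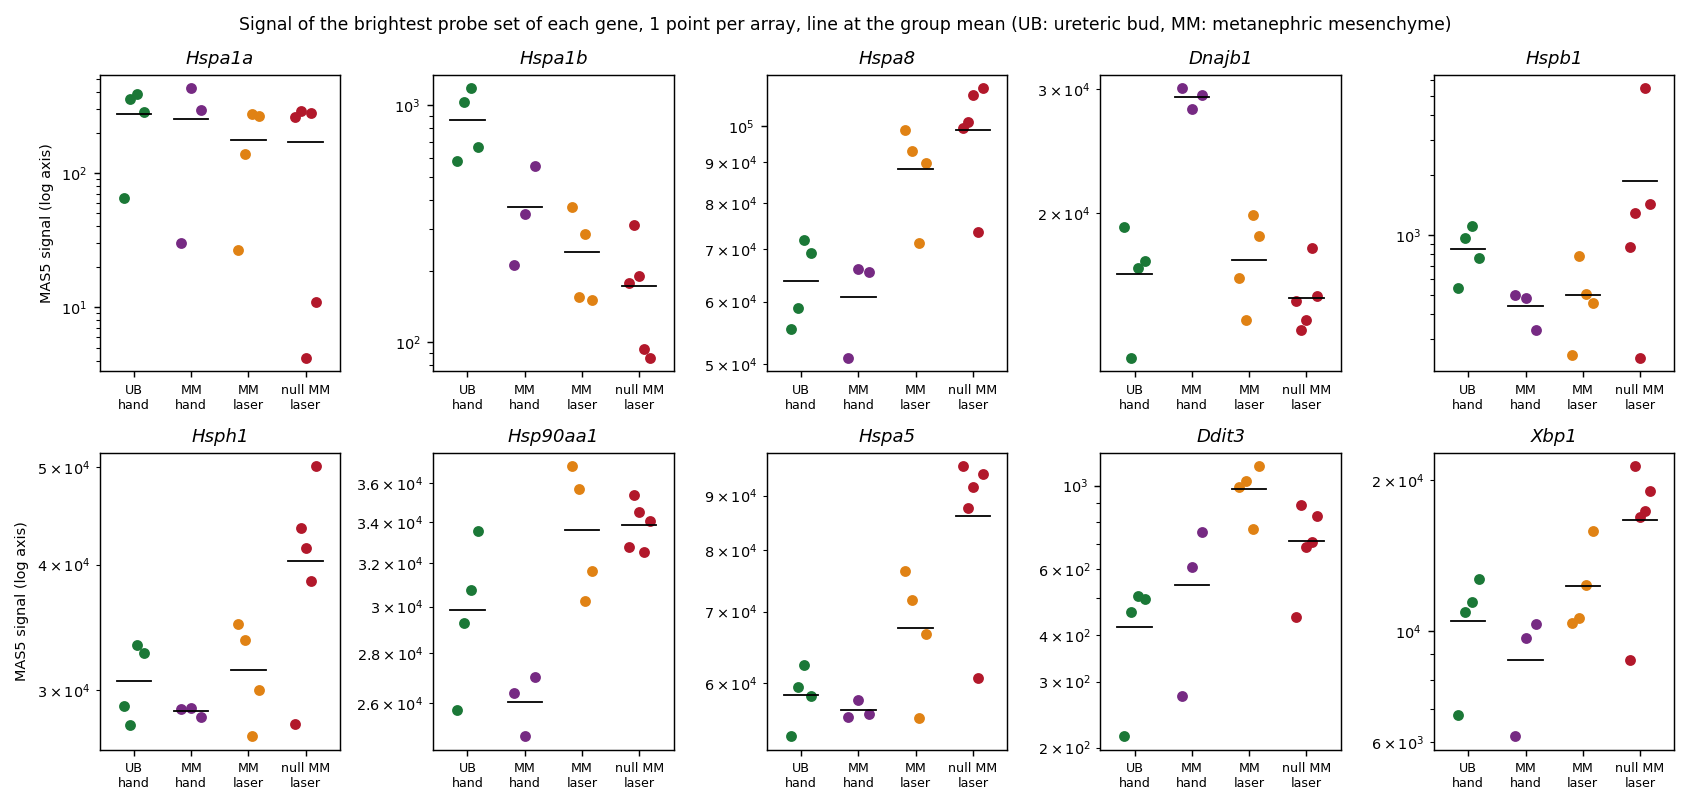
MAS5 signal (log axis, a different range per gene) of the brightest probe set of each member, 1 point per array in replicate order, with a line at the group mean. For Dnajb1 the 3 hand-dissected MM arrays, at 28117 to 30097, lie above all 13 others, and for Hspb1 null replicate 4 stands at 5477.

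Dnajb1, a cochaperone of the J-domain family that hands substrates to Hsp70, was the member with the most separate groups. Its signals were 30097, 28117 and 29426 on hand-dissected MM and 16133, 14077, 19858 and 18538 on wild-type captures. On UB it read 19121, 12434, 16714 and 17091, and on null captures 14984, 13615, 14086, 17813 and 15214. The 3 hand-dissected MM arrays were the highest of all 16, and the UB arrays lay among the captures. The mean of 29213 ± 1007 (SD, n = 3) was 1.70-fold that of the wild-type captures (17151 ± 2565, n = 4; log2 difference -0.78 ± 0.13 SE, limma adjusted p = 0.00262). It was 1.79-fold that of UB (16340 ± 2810, n = 4; -0.85 ± 0.16 SE, limma adjusted p = 0.00182). Over both hand-dissected against both captured groups the difference of 0.44 ± 0.11 SE (limma adjusted p = 0.00604) rests on the MM arrays, since UB was not above the captures. By rank within its array, Dnajb1 stood 515th to 647th on hand-dissected MM and 1077th to 2035th on the other arrays. The other Dnajb1 probe set, 1416756_at, averaged 1569 on hand-dissected MM and did not show it, with differences of -0.21 ± 0.30 SE for captures minus hand-dissected MM and 0.13 ± 0.33 SE for UB minus MM (limma adjusted p = 0.645 and 0.813). The call therefore rests on probe set 1416755_at. Hand-dissected MM is also the group with the highest Gapdh 3′ to 5′ ratios, whose part in this result was not tested.

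Hspa1a and Hspa1b encode the stress-inducible Hsp70, which is low in unstressed tissue. The Hspa1b probe set 1452318_a_at read 584, 1039, 1185 and 665 on UB and 210, 348 and 557 on hand-dissected MM. It read 372, 155, 286 and 150 on wild-type captures and 177, 312, 189, 93.1 and 85.5 on null captures. All UB arrays were above all others, while hand-dissected MM overlapped the captures. UB was 2.33-fold above MM by hand (868 ± 290 against 372 ± 175, SD; log2 difference 1.18 ± 0.34 SE, limma adjusted p = 0.0247). Leaving out UB replicate 2 or 3, or MM replicate 5 or 6, ended this call, with differences of 0.86 to 1.18. Hand-dissected groups exceeded captured groups by 1.36 ± 0.29 SE (limma adjusted p = 0.00259), a call that held without each array in turn. Probe set 1452318_a_at lay above the array median on every hand-dissected array, but only on 2 of 4 wild-type and 2 of 5 null captures. Its captured level was thus near background, which limits what the size of this difference can show. The other Hspa1b probe sets, 1427127_x_at and 1427126_at, entered the test through the hand-dissected arrays: they lay above the array median on 3 and 0 of the 9 captures. Their signals averaged 694 and 309 on UB, 329 and 178 on hand-dissected MM, and 112 and 58.9 on wild-type captures, and their differences are no further support. Within MM, captures minus hand dissection gave -0.55 ± 0.40 SE for 1452318_a_at (limma adjusted p = 0.344).

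The only Hspa1a probe set was close to background. Its signals were 65.4, 355, 385 and 286 on UB, 30.3, 429 and 292 on hand-dissected MM, 26.9, 138, 274 and 266 on wild-type captures, and 261, 290, 4.2, 279 and 11 on null captures. Arrays of every group were both high and low, and 10 of 16 lay above their array's median. No comparison passed, and the difference between hand-dissected and captured groups was 0.60 ± 0.57 SE (limma adjusted p = 0.465).

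Hspb1, the small heat shock protein Hsp27, read 539, 968, 1110 and 765 on UB and 500, 481 and 334 on hand-dissected MM. UB lay wholly above MM and was 1.93-fold higher (log2 difference 0.87 ± 0.28 SE, limma adjusted p = 0.0408). The other Hspb1 probe set, 1425964_x_at, gave 1.46 ± 0.38 SE (0.0152). On hand-dissected MM that set read 76.5 to 196.8, near background and above the array median on 2 of 3 arrays, which limits what its size can show. For the brightest probe set, omitting any array but UB replicate 1 ended the call, with differences of 0.70 to 0.96. The wild-type captures read 249, 784, 505 and 455, and the null captures 871, 1297, 241, 5477 and 1438. Replicate 4 of the null was thus the highest of all 16 arrays and null replicate 3 the lowest. The null mean of 1865 ± 2072 (SD, n = 5) differed from the wild-type captures by 1.29 ± 0.69 SE on the log2 scale (limma adjusted p = 0.34).

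Hspa8 is the constitutive Hsc70 and was among the brightest probe sets, ranking 6th to 70th of 45037. It read 50935, 66073 and 65414 on hand-dissected MM and 98830, 93112, 71174 and 89934 on wild-type captures. UB read 55382, 58927, 71792 and 69097, and the null captures 99456, 101147, 109382, 73460 and 111770. The captures were higher, with overlap only between UB and wild-type replicate 3. In MM the captures were 1.45-fold above hand dissection (log2 difference 0.54 ± 0.13 SE, limma adjusted p = 0.0111), and hand minus captured over 4 groups was -0.58 ± 0.10 SE (0.000537). The brightest Hspa8 probe set has the suffix _x_at, which Affymetrix gives to sets with probes shared with other sequences. Of its 3 other sets, 1431182_at moved further in MM (1.93 ± 0.37 SE, 0.00409), 1420623_x_at gave 0.56 ± 0.20 SE (0.0553) and 1420622_a_at 0.21 ± 0.14 SE (0.3).

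Hsp90aa1, the inducible cytosolic Hsp90, and Hsph1, an Hsp110 that exchanges nucleotide on Hsp70 were bright on every array. Hsp90aa1 read 26398, 24767 and 27013 on hand-dissected MM and 36916, 35702, 30262 and 31602 on wild-type captures. UB read 25763, 29284, 30724 and 33544, and the null captures 32751, 35397, 34499, 32545 and 34068. The captures exceeded hand-dissected MM without overlap, by 1.29-fold (0.36 ± 0.11 SE, limma adjusted p = 0.0308), but omission of any array other than wild-type capture replicate 3 ended the call (0.0522 to 0.0957). Its probe set 1426645_at pointed the other way in MM (-0.50 ± 0.22 SE, 0.114). For Hsph1 the signals were 28952, 27726, 33257 and 32633 on UB, 28764, 28797 and 28222 on hand-dissected MM, and 34907, 33681, 27001 and 30023 on wild-type captures. Null captures read 27772, 43514, 41563, 38550 and 50105, so that 4 of 5 lay above every other array. The difference from wild-type captures was 0.34 ± 0.17 SE (limma adjusted p = 0.296), and 0.47 (0.0448) without null replicate 1.

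**Figure D2:**
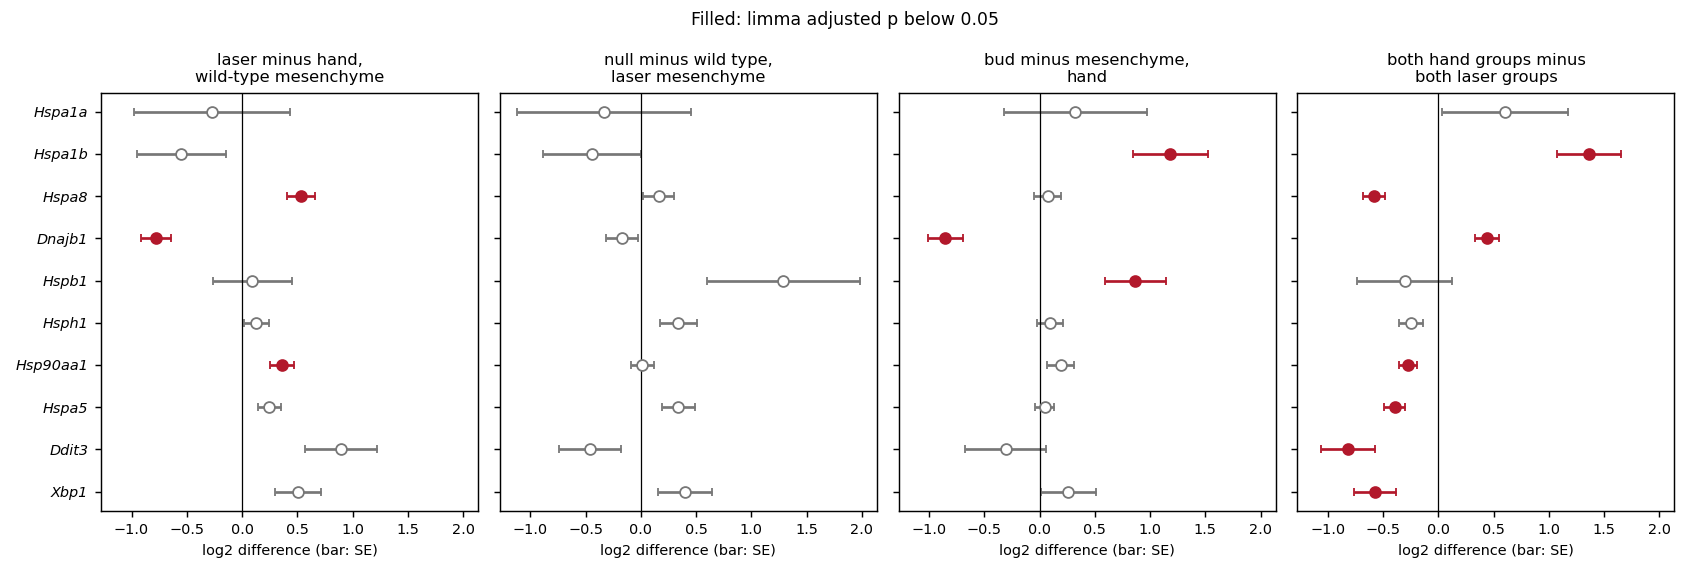
Log2 difference ± SE (limma) of each member's brightest probe set in the 4 comparisons, filled where the adjusted p is below 0.05. Dnajb1 is filled in 3 panels, at -0.78, -0.85 and 0.44, and the panel of null minus wild type has no filled point.

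Hspa5 (BiP), the Hsp70 of the ER and the classical UPR target, read 55715, 57873 and 56142 on hand-dissected MM and 53462, 59406, 62326 and 58375 on UB. Wild-type captures read 76386, 71805, 55555 and 66652, and null captures 95876, 87628, 91627, 60631 and 94323. The hand-dissected arrays were close together, and replicate 3 of the wild-type and replicate 4 of the null captures lay among them. Hand minus captured was -0.39 ± 0.09 SE (limma adjusted p = 0.00554), while captures minus hand dissection in MM gave 0.25 ± 0.11 SE (0.112) and null minus wild type 0.34 ± 0.15 SE (0.258). Probe set 1427464_s_at, 5813 on average in hand-dissected MM, was higher in captures (0.76 ± 0.17 SE, 0.0103) and in UB (0.90 ± 0.24 SE, 0.0185). It was not called for hand minus captured (-0.40 ± 0.19 SE, 0.122). The third set, 1447824_x_at, was not called either, at -0.09 ± 0.17 SE (0.726) for captures minus hand dissection in MM. For hand minus captured it pointed the other way (0.206 ± 0.125 SE, 0.237). The call over 4 groups therefore rests on the brightest probe set.

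Ddit3, the transcription factor CHOP, read 215, 459, 507 and 498 on UB and 274, 606 and 752 on hand-dissected MM. Its wild-type captures read 992, 1028, 765 and 1126, and its null captures 446, 887, 686, 706 and 830. All wild-type captures were above all hand-dissected arrays, while the null captures overlapped both. Hand minus captured was -0.82 ± 0.24 SE (limma adjusted p = 0.019), and -0.62 (0.0757) without hand-dissected MM replicate 5. In MM alone the captures were 1.80-fold higher (0.90 ± 0.33 SE, limma adjusted p = 0.0656).

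Xbp1, whose unspliced and spliced mRNA were not told apart here, read 6798, 10896, 11434 and 12720 on UB and 6173, 9695 and 10341 on hand-dissected MM. It read 10383, 10627, 12360 and 15800 on wild-type captures, and 8752, 21295, 16865, 17375 and 19036 on null captures. Apart from replicate 1 the null captures were the highest arrays. Hand minus captured was -0.58 ± 0.19 SE (limma adjusted p = 0.0308), a call lost without UB replicate 1, hand-dissected MM replicate 5 or wild-type capture replicate 4 (-0.46 to -0.51). Null minus wild type gave 0.40 ± 0.25 SE (0.414), and 0.61 (0.0421) without null replicate 1. In MM alone captures minus hand dissection gave 0.51 ± 0.21 SE (limma adjusted p = 0.101). The dimmest probe set, 1420012_at, at 160 on average in hand-dissected MM, was called higher in captures (1.44 ± 0.30 SE, limma adjusted p = 0.00701). Probe sets 1420011_s_at (0.74 ± 0.26 SE, 0.0591) and 1420886_a_at (0.27 ± 0.30 SE, 0.547) were not.

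Over all 28 member probe sets, 5 were higher and 2 lower of 24 tested in captures against hand-dissected MM, where 24.8% of all probe sets were called (16.3% higher, 8.51% lower). By hand against captures, 4 were higher and 8 lower of 25 (26.5% of all called, 11.6% higher and 14.9% lower), and in UB against MM 6 were higher and 1 lower of 25 (23.9%, 12.4% higher). Null against wild type gave 0 of 23 with limma (1.76%, 0.59% higher and 1.17% lower). The 4 higher by hand against captures included all 3 Hspa1b probe sets, so they are not 4 separate genes. Of these sets, 1427127_x_at and 1427126_at were tested only through the hand-dissected arrays. The 2 lower in captured MM also included 1427127_x_at, tested there through the hand-dissected arrays. This limits what the counts can show beside the shares of all probe sets.

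**Figure D3:**
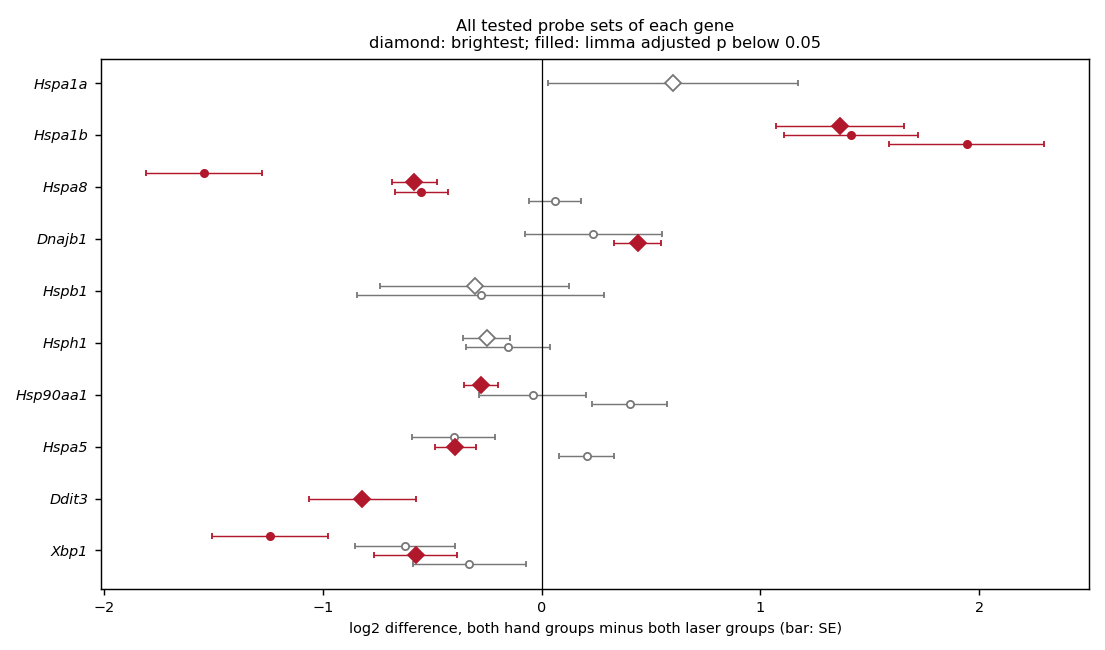
Log2 difference ± SE, both hand-dissected minus both captured groups, for each tested probe set of each member (diamond, the brightest; filled, limma adjusted p below 0.05). The 3 Hspa1b probe sets lie at 1.36 to 1.94, and each of them was below the array median on most captures. Those of Hsp90aa1 run from -0.28 to 0.40 and none but the brightest is called.

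The size of the brightest members' differences depended on how the arrays were scaled. The deposited values share a trimmed mean, but the highest signal of an array ran from 76693 to 91857 on hand-dissected arrays, from 88511 to 132555 on wild-type captures and from 96858 upward on null captures. Hspa8 and Hspa5 lie near that end. With quantile normalization, which gives all arrays the same distribution, hand minus captured became -0.08 for Hspa8 (limma adjusted p = 0.256), 0.10 for Hspa5 (0.208) and -0.14 for Hsp90aa1 (0.107). The same scaling left Dnajb1 at 0.47 (0.00326), Hspa1b at 1.48 (0.00127) and Xbp1 at -0.61 (0.018), and Ddit3 at -0.66 (0.0705). Within MM it brought captures minus hand dissection to 0.16 (0.152) for Hspa8 and to -0.82 (0.00217) for Dnajb1. Centring on the array medians moved the median over all probe sets from 0.11 to -0.08 in that comparison and Hsp90aa1 from 0.36 to 0.17 (0.228). The same centring brought hand minus captured for Xbp1 to -0.46 (limma adjusted p = 0.185). With the deposited scaling, the median over the Xbp1 probe sets gave -0.48 (0.15).

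**Figure D4:**
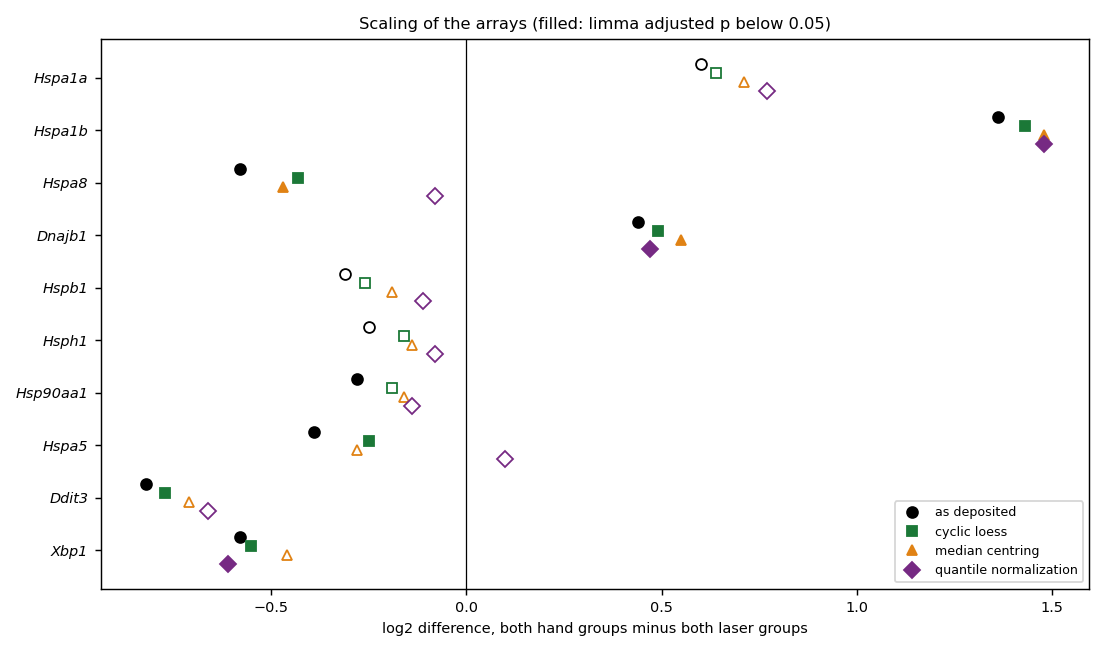
Log2 difference, both hand-dissected minus both captured groups, under the deposited scaling and 3 others, filled where the limma adjusted p is below 0.05. Hspa5 moves from -0.39 to 0.10 and Hspa8 from -0.58 to -0.08 under quantile normalization, while Dnajb1 stays between 0.44 and 0.55.

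The other genes of these pathways were counted by list, each by its brightest probe set. The list of cytosolic chaperones and cochaperones also held Serpinh1 and Hspa13, whose proteins lie in the ER. Of its 27 genes tested, 5 were higher and 2 lower in captured than in hand-dissected MM, with a list median of -0.05 against 0.08 for all genes. That is a share near the 23.5% called among all genes. Dnajb4, a relative of Dnajb1, fell by 1.44 ± 0.23 SE (limma adjusted p = 0.00185), from 19499 ± 5248 to 7172 ± 1856 (SD, n = 3 and 4). Chordc1, an Hsp90 cochaperone known as heat-inducible, was also lower (-0.60 ± 0.14 SE). Fkbp4, an Hsp90 cochaperone (0.93 ± 0.22 SE), and Bag1, a nucleotide exchange factor (0.87 ± 0.18 SE), were higher. Cryab, a small heat shock protein, was also called, but it was tested only through the captures (263 ± 107), of which 3 of 4 lay above the array median. It was below the array median on 3 of 3 hand-dissected MM arrays (36.0 ± 41.8). In UB against MM the same list gave 3 higher and 3 lower of 26, where 28.5% of all genes were called. Dnajb4 stood at 2918 ± 726 in UB and differed by -2.73 ± 0.24 SE from MM (limma adjusted p = 7.9e-06), with Hspb8 (-1.83 ± 0.28 SE) and Hspa2 (-1.47 ± 0.21 SE) also lower. Fkbp4 (1.41 ± 0.24 SE), Bag2 (0.67 ± 0.21 SE) and St13 (0.60 ± 0.19 SE) were higher in UB. Dnajb4 thus shared with Dnajb1 a level in hand-dissected MM above both other wild-type groups. By hand over 4 groups the list gave 1 higher and 5 lower of 27, Cryab among the lower, with a median of 0.05. Among all genes 29.2% were called there.

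The chaperonin and mitochondrial list (13 genes) had 2 genes higher in captured MM (23.5% of all genes called) and 6 lower by hand over the 4 groups (29.2%). Clpp, a mitochondrial protease, gave 1.41 ± 0.23 SE in captured MM and 1.12 ± 0.28 SE in UB. Cct2, a subunit of the cytosolic chaperonin (0.39 ± 0.13 SE in captured MM), and Hspd1, the mitochondrial Hsp60, were lower by hand over 4 groups (-0.46 ± 0.12 and -0.38 ± 0.10 SE), which turned to 0.05 and 0.02 with quantile normalization. Clpp was lower by hand there as well (-0.77 ± 0.19 SE).

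Of 27 ER chaperones and UPR genes, 6 were higher and 1 lower in captured MM (median 0.08, as for all genes), a share near the 23.5% of all genes. By hand over 4 groups 0 were higher and 9 lower by limma, with 12 at an unadjusted p below 0.05, where 29.2% of all genes were called and 16% were lower. The list median there was -0.02, as for all genes. Manf, a secreted ER stress protein, read 3888 ± 33.5 in hand-dissected MM (SD, n = 3) and 10103 ± 1033 in wild-type captures (n = 4; 1.36 ± 0.15 SE, limma adjusted p = 0.000403). Its level in UB was 9300 ± 352 (n = 4; 1.25 ± 0.16 SE above MM, limma adjusted p = 0.000146). Sdf2l1, an ER chaperone cofactor (1.21 ± 0.25 SE), and Edem1, of ER-associated degradation (0.97 ± 0.28 SE), were also higher in captured MM, and Eif2ak3, the UPR kinase PERK, was lower (-0.65 ± 0.18 SE). In UB, Atf6b (1.16 ± 0.30 SE), a relative of the UPR sensor Atf6, and Edem1 (1.10 ± 0.31 SE) were above MM, and Dnajb9, an ER cochaperone, below it (-0.84 ± 0.24 SE), within 6 higher and 1 lower of 27 (28.5% of all genes called). By hand over 4 groups Manf (-1.04 ± 0.22 SE) and the ER-associated degradation genes Herpud1 (-0.95 ± 0.21 SE) and Sel1l (-0.84 ± 0.27 SE) were lower.

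Ddit3 is also a gene of the integrated stress response, which the kinase arm of the UPR feeds. Of 14 other genes of that response tested, 1 was higher and 2 lower in captured MM, where 23.5% of all genes were called: Phgdh, of serine synthesis (0.57 ± 0.17 SE), against Ddit4, an inhibitor of mTOR signalling (-1.66 ± 0.27 SE), and Mthfd2, a mitochondrial folate enzyme (-0.95 ± 0.16 SE). In UB 6 were higher and 1 lower of 15 (28.5% of all genes called), among them Vldlr (2.20 ± 0.23 SE) and Shmt2 (1.49 ± 0.19 SE), with Ddit4 at -0.84 ± 0.27 SE. Sesn2 was counted among the 6 but averaged 286 ± 178 in UB and 48.1 ± 14.9 in MM, where it was below the array median on 3 of 3 arrays. By hand over 4 groups 5 were higher and 0 lower of 16 by limma, with 7 at an unadjusted p below 0.05 (29.2% of all genes called). They included Ddit4 (1.49 ± 0.20 SE), Ppp1r15a, the phosphatase subunit that ends the response (0.88 ± 0.30 SE), and Mthfd2 (0.71 ± 0.16 SE).

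The immediate early genes, induced within minutes of a stimulus and many of them transcription factors, were mostly higher after hand dissection. Of 23, 15 were lower and 1 higher (Gadd45g, 1.15 ± 0.33 SE) in captured MM, with a median of -1.62, where 23.5% of all genes were called and 9.88% were lower. Some were near background in the captures and entered the test through the hand-dissected arrays, so levels are given for them in place of a difference. They are part of the counts and the median, which limits what these can show. Fosb stood at 17990 ± 2918 in hand-dissected MM (SD, n = 3) and 73.5 ± 59.0 in wild-type captures (n = 4), below the array median on 4 of 4. Fos averaged 32684 ± 5142 and 320 ± 310, and Egr2 9077 ± 5379 and 160 ± 176, above the array median on 3 and 1 of the 4 captures. In UB against MM 7 were lower and 1 higher (Ier2, 1.08 ± 0.36 SE), where 28.5% of all genes were called. The lower ones included Fosb (-2.95 ± 0.40 SE) and Fos (-1.50 ± 0.22 SE), and also Egr3, at 1855 ± 1829 in MM and 92.8 ± 7.1 in UB, below the array median on 4 of 4 UB arrays. By hand over 4 groups 18 were higher and 1 lower (Gadd45g, -1.64 ± 0.35 SE), where 29.2% of all genes were called and 13.3% were higher. Over all 9 captures Fos averaged 412, Fosb 67.6 and Egr2 126, against 20774, 9265 and 7823 over the hand-dissected arrays.

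**Figure D5:**
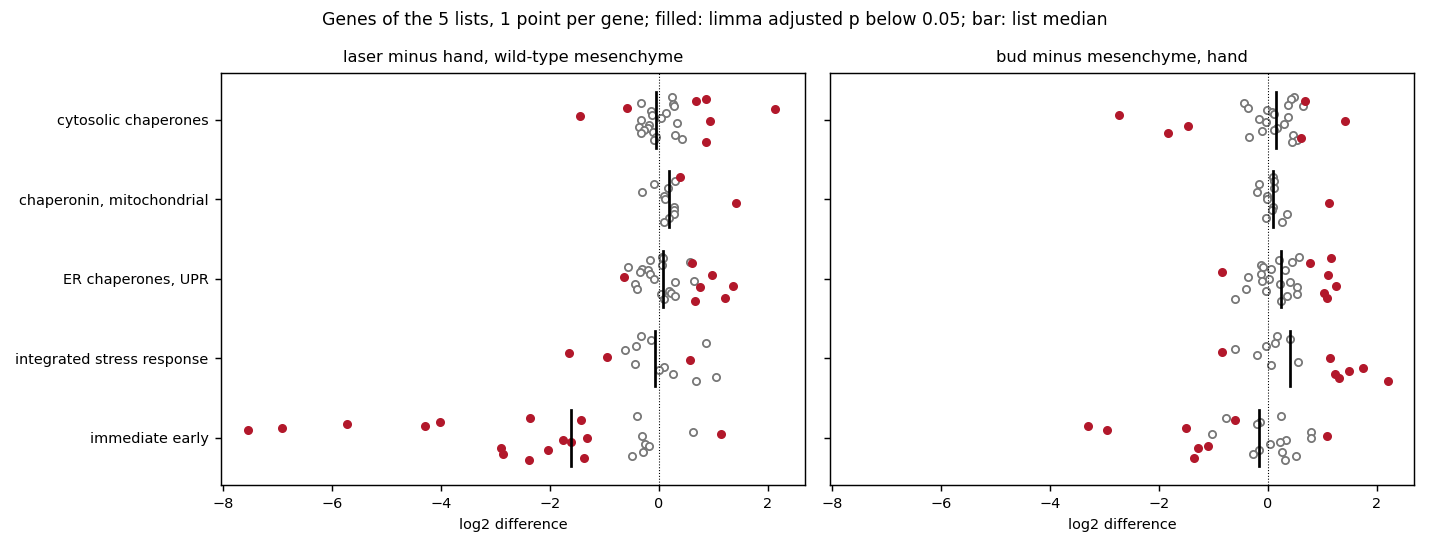
Log2 difference of each gene of the 5 lists, without the members, in wild-type captures minus hand-dissected MM and in UB minus MM by hand, filled where the limma adjusted p is below 0.05, with a bar at the list median. The chaperone and UPR medians lie between -0.05 and 0.24, and the immediate early median in captured MM at -1.62.

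In null against wild-type captures 3 genes of these lists were called, where 1.74% of all genes were. Serpinh1, the ER collagen chaperone Hsp47 counted in the cytosolic list, was higher (0.80 ± 0.17 SE, limma adjusted p = 0.0399). Also higher were Cct6a, a chaperonin subunit (0.55 ± 0.12 SE, 0.0476), and Pdia6, an ER disulfide isomerase (0.54 ± 0.12 SE, 0.0466). These were 1 of 27, 1 of 13 and 1 of 27 genes tested in the first 3 lists. Their adjusted p-values lay close to the threshold. In this comparison the 411 called probe sets became 60 to 1809 on leaving out each array. The integrated stress response and immediate early lists gave 0 of 14 and 0 of 19 with limma, and 2 each at an unadjusted p below 0.05.

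Of 13493 genes, those whose log2 values over the 16 arrays were most like Hspa5's were Eef1a1 (Pearson r = 0.969), Hnrnpdl (0.965), Npc2 (0.958), Ctnnb1 (0.957) and Vdac1 (0.957). For Hspa1a they were Tmem198b (0.83), Rad54l2 (0.822), Gdpd3 (0.814), Dpp9 (0.803) and Exog (0.8). The arrays fall into 4 groups and share their scaling, and these values are a description.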

How the data were processed

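Per the labels' protocols, each sample went through 2 amplification rounds before hybridization to an Affymetrix MOE430_v2 array; amplification from the 3′ end can shift probe sets far from it. The deposited values are linear signal intensities from MAS5, per the submitters' processing notes (no version named). The mean of each deposited array, without 2% at each tail, was 1500.01. Median signals were 112.7 to 209.2. Of 45101 probe sets 64 were controls, and 34945 of the rest had 1 symbol in the platform annotation.

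Signals were converted to log2(signal + 36.3), the 25th percentile of all values; this understates changes of dim genes. Probe sets were kept when above their array's median in at least the number of arrays of the smaller group. Limma 3.58.1 in R 4.3.3 (lmFit, eBayes with trend) was fitted to each comparison's own arrays, and to all 16 for the summary of 4 groups, with Benjamini-Hochberg adjustment. The scripts were tested on simulated data. Replicates are separate embryos or pools, per the series text and labels. The members and lists were chosen with earlier results of these data known. Named were all members, up to 3 genes per list, comparison and direction past the threshold with the largest differences, and the 5 genes most correlated with Hspa1a and Hspa5. Alternatives covered offset, filter, normalization, variance model, arrays fitted, probe set and replicate block. The self-test's values are not quoted. Figures used matplotlib 3.10.9.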

Additional observations from a re-analysis of the deposited data

Results flagged for a closer look

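Within each group of 4 or 5 arrays, the members' highest and lowest log2 values were set against the rest by Dixon's criterion; 4 of the 30 groups tested had an array past it, where chance gives about 1 in 20. Hspa8 was low on null capture replicate 4, at 73460 against 99456 to 111770 on the other null arrays. Hspa5 was low on the same array, at 60631 (60631.2) against 87628 to 95876. Both are among the brightest probe sets, and on that array Hspb1 read 5477, the highest of all. Ddit3 was low on UB replicate 1, at 214.6 against 459 to 507. Xbp1 was low on null capture replicate 1, at 8751.9 against 16865 to 21295; this is the array that correlated least with its group (0.858). Causes were not tested.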

How the results depend on the processing

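Of 929 values of members under alternatives, 848 kept their side of the threshold, 59 lost the call, 15 gained it and 7 reversed. A change of direction was counted as reversed only where the main or the alternative value was past the threshold. The 848 therefore include uncalled values that changed direction, such as Hspa1a in captured against hand-dissected MM (-1.12 to 0.28 leaving out each array). Of 1233 values of the other named genes, 1051 kept direction and call, 179 lost the call and 3 reversed. Members past the threshold were 3 of 10 for captured against hand-dissected MM, and 1 with median centring and 5 with array weights (2 to 4 leaving out each array). For UB against MM they were 3, and 1 without the filter and 1 with all 16 arrays in the fit (1 to 3). For hand against captured over 4 groups they were 7, and 3 with quantile normalization, 3 with median centring and 1 with the median over a gene's probe sets (5 to 8). For null against wild type they were 0 (0 to 2, the 2 being Hsph1 and Xbp1 without null replicate 1). The cause was not tested.

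Probe sets called in captured against hand-dissected MM numbered 5866, and 2811 with all 16 arrays in the fit and 1915 genes with the median over probe sets (3384 to 5994 leaving out each array). Null against wild type gave 411, and 256 without the filter, 207 with median centring, 1654 with array weights, 1793 with all 16 arrays and 124 genes with the median over probe sets (60 to 1809). UB against MM gave 5701, and 10132, 3580 and 3063 with array weights, all 16 arrays and the median over probe sets (3982 to 7804). Hand against captured gave 7256, and 3075 with the median over probe sets (5448 to 7989). The split of higher and lower moved with scaling: 3857 and 2009 became 2932 and 2574 (quantile), 2435 and 3207 (median centring) and 3217 and 2508 (cyclic loess) in captured against hand-dissected MM. It went from 3181 and 4075 to 3907 and 3467 (quantile) and 3643 and 2710 (median centring) by hand against captured. In UB against MM, 2952 and 2749 became 4015 and 2204 with median centring. Null against wild type went from 138 and 273 to 164 and 196 (loess) and 136 and 71 (median centring).

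With the replicate number as a block, null against wild type gave 53 probe sets and 0 members, and hand against captured 2345 probe sets and 3 members. Same-numbered arrays did not deviate together (r = -0.056 to 0.069 over 13 pairs) and no label pairs them. Reversed values by quantile normalization over 4 groups were 0.10 for Hspa5, 0.05 for Cct2 and 0.02 for Hspd1. By the median over probe sets they were 0.20 for Hsp90aa1 and 0.92 for Hspa13. By another probe set they were 0.06 for Hspa8, 0.40 for Hsp90aa1 and 0.21 for Hspa5 over 4 groups, -0.50 for Hsp90aa1 in captured against hand-dissected MM, and 0.13 for Dnajb1 in UB against MM. Near-background signals such as Hspa1a's limit what 3 to 5 arrays can show.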
